A study of Mus musculus with 20 samples.

Results

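Gene expression 1 wk after conditioned fear (CF) learning was compared with expression 48 hr after it in 2 brain regions of 2 genotypes. The 8 arrays labelled with these times were taken from the 20 of the series and set in 4 pairs: WT amygdala, DKO amygdala, WT hippocampus and DKO hippocampus. All mice were male, of the C57BL/6 strain and 2 mo old, and had received a single foot shock of 0.7 mA for 2 sec during a training trial. DKO mice lack AC1 and AC8. By the study's methods they carried 1 transgene alone (tetop-AC8 or CaMKII-tTA) or neither, came from matings kept on doxycycline and stayed on it until weaning, whereas the WT mice were C57Bl/6 animals that were not littermates. Mice of the 1 wk group also went through a 5 min testing trial before they were killed, so time since training and the test itself cannot be told apart. RNA from micropunches of 5 to 10 mice was pooled on each Affymetrix Mouse Gene 1.0 ST array, with 1 array per region, genotype and time. Whether both regions came from the same mice is not stated, so the regions need not be independent.

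AC1 and AC8 are the adenylyl cyclases that Ca2+ and calmodulin stimulate. The cAMP they make activates protein kinase A and, through it, the transcription factor CREB, which drives activity-induced genes such as Fos and Arc. The hippocampus encodes the context of a fear memory and the amygdala ties that context to the shock, and the later time follows a trial in which the memory could be recalled.

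Values are log2 RMA values, so a difference of 1 between arrays is a doubling. The targeted genes matched the genotype labels on these 8 arrays. Adcy8 stood at 6.94 to 7.66 on the 4 WT arrays and at 5.25 to 5.80 on the 4 DKO arrays. Adcy1 stood at 9.23 and 9.32 in WT hippocampus against 7.73 and 7.68 in DKO hippocampus, and at 8.38 and 8.07 in WT amygdala against 7.55 and 7.73 in DKO amygdala. The region labels were checked against marker lists. Of 20 hippocampus-enriched genes 12 were higher on all 4 hippocampus arrays than on any amygdala array, against 7.98% of all 19938 genes. Of 18 amygdala-enriched genes 11 were higher on all 4 amygdala arrays, against 6.01% of all genes. The other way round, 1 of the 20 was higher on all 4 amygdala arrays and 3 of the 18 on all 4 hippocampus arrays. Correlations between arrays ran from 0.983 to 0.995, and the DKO amygdala array of 48 hr stood apart with a narrower spread of values (SD 1.71 against 1.78 to 1.87 on the others). Its pair carried a median difference of 0.14 over all genes, against 0.00 in WT amygdala, 0.02 in WT hippocampus and 0.07 in DKO hippocampus, and some differences of that pair are also given relative to its median. Single pairs hold 1 array per time, so their differences have no replicate and no test.

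No transcript cluster was called as different between 48 hr and 1 wk over the 4 pairs (limma with the pair as a block, 0 of 28853 at an adjusted p of 0.05). The smallest adjusted p was 0.897, and 1107 transcript clusters, 3.84%, had an unadjusted p below 0.05, of which 995 were higher and 112 lower at 1 wk. This split depended on the scaling: after each array was centred on its median 311 were higher and 376 lower, and after a further quantile normalization 463 and 446. Without the block limma again called 0, with 557 below an unadjusted p of 0.05. No gene differed by 1.5-fold in the same direction in 3 or more pairs, and 25 did so upward and 3 downward in 2 pairs. By sign alone 2195 genes (11.0%) were higher and 317 (1.59%) lower at 1 wk in all 4 pairs, and the balance turned after centring, to 747 and 1009.

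The leading genes over the 4 pairs, given here as not passing, were small in size and mixed in kind. Kcne2, a potassium channel subunit of epithelia, stood at 6.49, 7.03, 6.14 and 5.91 at 48 hr and at 7.73, 7.75, 6.57 and 6.41 at 1 wk in WT amygdala, DKO amygdala, WT hippocampus and DKO hippocampus. It was higher at 1 wk in every pair, by a mean of 0.72 (SE 0.125, 4 pairs, limma adjusted p = 0.897), and the difference was largest in WT amygdala. Mc4r, the melanocortin receptor that lowers food intake, had a smaller but even difference. In the same order of pairs it read 7.18, 7.21, 7.07 and 6.85 at 48 hr and 7.44, 7.55, 7.43 and 7.24 at 1 wk, a mean difference of 0.34 (SE 0.080, limma adjusted p = 0.897). All 4 arrays of 1 wk lay above all 4 of 48 hr for this gene, which held for 1.36% of all genes.

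Sarm1, an NADase that drives the breakdown of injured axons, was higher by 0.29, 0.36, 0.51 and 0.34 in WT amygdala, DKO amygdala, WT hippocampus and DKO hippocampus, with a mean of 0.37 (SE 0.082). Tagap, a gene of activated T cells, was higher by 0.48, 0.52, 0.28 and 0.58. Mirlet7g, the gene of the microRNA let-7g, was higher by 0.34, 0.56, 0.25 and 0.37. On the lower side Ifi205, an interferon-induced gene, differed by -0.28, -0.36, -0.57 and -0.56 at dim levels of 4.06 to 4.84. Dnah3, an axonemal dynein of motile cilia, differed in 1 of 33 probe sets by -0.58, -0.54, -0.17 and -0.46, and Galr1, a galanin receptor, by -0.23, -0.32, -0.15 and -0.34. Olfactory or vomeronasal receptor genes were among the others: Olfr1148 on the higher side, and Olfr43, Vmn1r208, Vmn2r23 and Olfr811 on the lower, where their mean levels of 4.20 to 5.68 lay under the array medians of 6.64 to 6.83. All 24 leading genes had an adjusted p of 0.897.

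**Figure D1:**
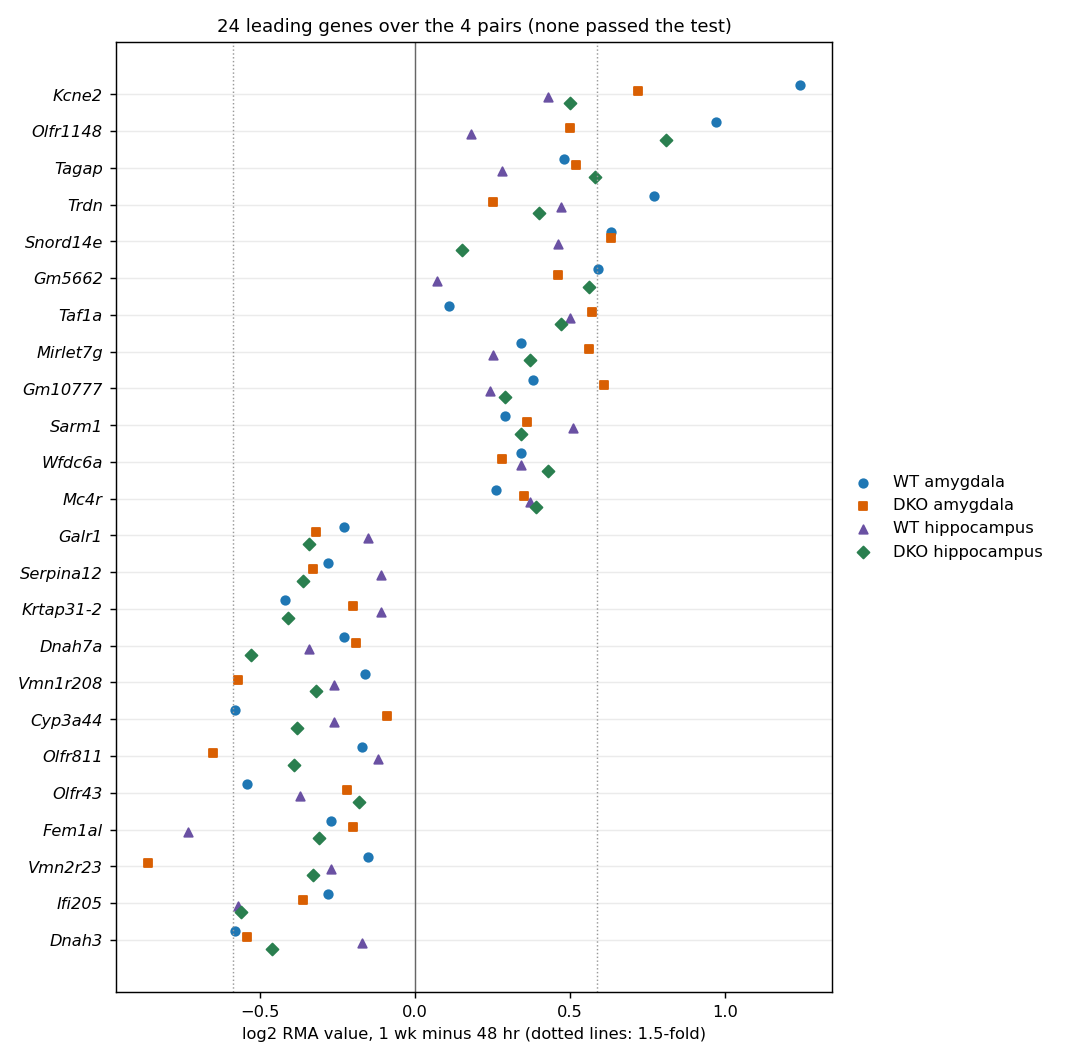
Differences between 1 wk and 48 hr (x axis, log2 RMA value) of the 24 leading genes (rows), with 1 point for each pair of arrays and dotted lines at 1.5-fold. Points of a row share their sign in all 4 pairs, and Kcne2 and Snord14e lie past 1.5-fold in both amygdala pairs.

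Immediate early genes are those that neurons switch on soon after activity. None of 27 transcription factor genes of this class differed by 1.5-fold in any pair. Of all genes 0.286%, 2.58%, 0.196% and 0.301% were higher by that much in WT amygdala, DKO amygdala, WT hippocampus and DKO hippocampus, and 0.115%, 0.211%, 0.276% and 0.145% lower, so a count of 0 among 27 is near the background. Their median differences were -0.01 in WT amygdala, 0.19 in DKO amygdala (all genes 0.14), 0.09 in WT hippocampus and 0.09 in DKO hippocampus. Fos, the first of the class to be tied to neuronal activity, read 6.46, 6.22, 6.43 and 6.4 at 48 hr and 6.72, 6.38, 6.79 and 6.27 at 1 wk in WT amygdala, DKO amygdala, WT hippocampus and DKO hippocampus. It was higher in 3 of 4 pairs, with differences from -0.13 to 0.36, and the levels of the 2 times overlapped.

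Egr2, a zinc finger factor of the same response, differed by 0.34 and 0.35 in WT amygdala and WT hippocampus and by 0.18 and -0.10 in DKO amygdala and DKO hippocampus. Nr4a1, an orphan nuclear receptor, differed by 0.16, 0.32, 0.19 and 0.21, and Egr4 by 0.13, 0.27, 0.13 and 0.15. Together with Fosl2, Crem and Srf these made 5 genes of 27 above 0 in all 4 pairs, against 11.0% of all genes, and after each array was centred on its median 4 of 27 against 3.75%. Npas4, a factor specific to depolarised neurons, differed by 0.20, 0.00, -0.18 and 0.30, and Junb by -0.08, 0.42, -0.02 and 0.00. Egr1 differed by -0.01, 0.42, 0.08 and 0.21, and Fosb by -0.09, 0.47, 0.26 and 0.12. The larger values of these 3 genes all fell in the DKO amygdala pair.

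Of 28 effector genes that activity induces, 1 passed 1.5-fold in a pair: Ptgs2, the inducible cyclooxygenase, was higher by 0.67 in DKO amygdala (0.53 above that pair's median; background 2.58%) and differed by -0.41 in WT amygdala. This share is near the background. Arc, which scaffolds AMPA receptor uptake at synapses, read 7.68, 7.40, 7.67 and 7.58 at 48 hr and 7.81, 7.57, 7.98 and 7.66 at 1 wk. Its difference was 0.31 in WT hippocampus and 0.08 in DKO hippocampus. Bdnf, the neurotrophin of synaptic strengthening, differed by -0.01, 0.26, 0.07 and 0.29, Dusp1 by -0.01, 0.13, -0.08 and -0.14 and Btg2 by 0.36, 0.13, 0.15 and -0.01. No member of either class passed the test in the main fit of any comparison.

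**Figure D2:**
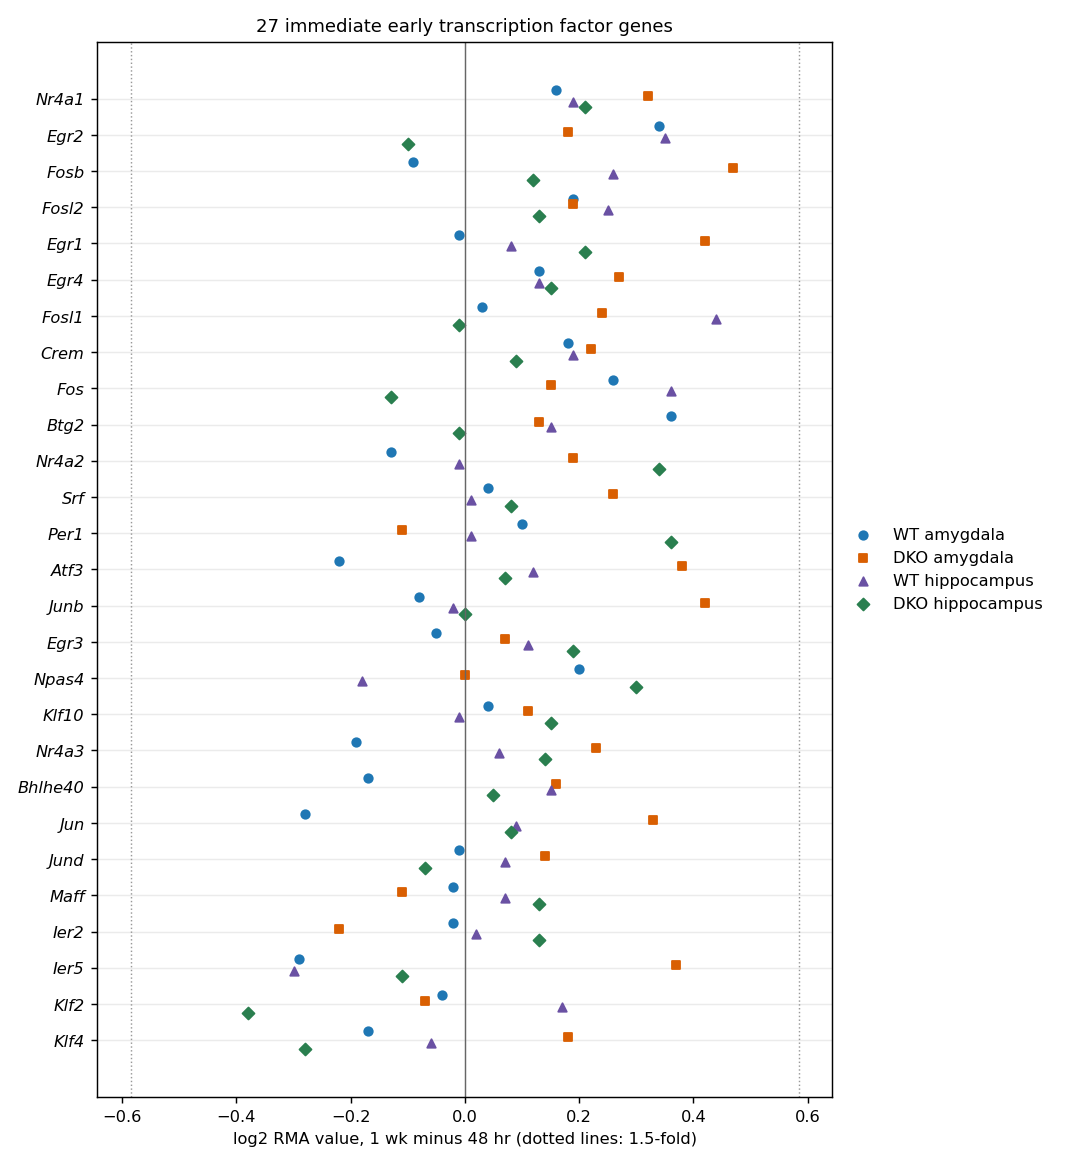
Differences between 1 wk and 48 hr (x axis, log2 RMA value) of 27 immediate early transcription factor genes (rows), with 1 point for each pair of arrays and dotted lines at 1.5-fold. Every point lies inside the 1.5-fold lines, from -0.38 to 0.47, and DKO amygdala points tend to the right, as the median of all genes in that pair does.

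In the amygdala the leading genes of the time contrast were those of the choroid plexus, the epithelium that secretes cerebrospinal fluid. All 13 measured genes of this list were higher at 1 wk in both amygdala pairs. In WT amygdala 11 of 13 passed 1.5-fold (background 0.286% of genes) with a median difference of 0.87, and in DKO amygdala 4 passed (background 2.58%) with a median of 0.49 against 0.14 for all genes. After a further quantile normalization 11 and 1 passed, with medians of 0.86 and 0.24. In tissue RNA, fewer cells of a type and less RNA per cell cannot be told apart. Ecrg4, a secreted peptide precursor abundant in this epithelium, read 6.81 at 48 hr and 9.42 at 1 wk in WT amygdala, 8.62 and 9.31 in DKO amygdala, 7.19 and 7.17 in WT hippocampus and 7.43 and 7.39 in DKO hippocampus. The WT amygdala array of 48 hr thus lay below every other array, and its pair differed 6.10-fold.

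Ttr, the carrier of thyroid hormone and the main product of the tissue, read 11.56 and 13.20 in WT amygdala, 12.68 and 13.17 in DKO amygdala, 11.73 and 10.46 in WT hippocampus and 11.01 and 10.12 in DKO hippocampus. It was higher at 1 wk in both amygdala pairs and lower in both hippocampus pairs. Clic6, a chloride channel protein, differed by 1.3, 0.99, -0.52 and 0.02 in WT amygdala, DKO amygdala, WT hippocampus and DKO hippocampus, Kcnj13, a potassium channel, by 1.22, 0.55, -0.23 and 0.24, and Kl, the klotho co-receptor, by 1.13, 0.38, 0.03 and 0.16. Otx2, the homeobox factor that specifies the epithelium, differed by 0.87, 0.54, -0.39 and -0.31. Sostdc1, a BMP and Wnt antagonist, completed the 4 genes past 1.5-fold in both amygdala pairs with Ecrg4, Clic6 and Kcne2, differing by 0.70 and 0.59. Across all genes only 12, or 0.0602%, were 1.5-fold higher in both amygdala pairs.

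The mean level of the 13 genes was 7.24 at 48 hr and 8.28 at 1 wk in WT amygdala, 7.69 and 8.17 in DKO amygdala, 7.24 and 7.08 in WT hippocampus, and 7.07 and 6.98 in DKO hippocampus. Both amygdala arrays of 1 wk were therefore near 8.2, and the pairs differed mainly in their 48 hr array. None of these genes passed the test within the amygdala, where limma called 0 transcript clusters at an adjusted p of 0.05 and 1045 at an unadjusted p below 0.05 (3.62%, smallest adjusted p 0.186). Among genes with a symbol Ecrg4 gave a mean of 1.65 (SE 0.333, limma adjusted p = 0.907) and Kcne2 0.98 (SE 0.149, adjusted p = 0.749). With a variance trend and robust fitting limma called 5 transcript clusters within the amygdala, all higher at 1 wk. They were those of Kcne2, Clic6, Chodl and Gm13092 and 1 not paired with a single symbol. Genes of ependymal cilia, from the ventricle wall, had medians of -0.02 in WT amygdala and 0.32 in DKO amygdala. The part of choroid plexus tissue in the punches was not tested.

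**Figure D3:**
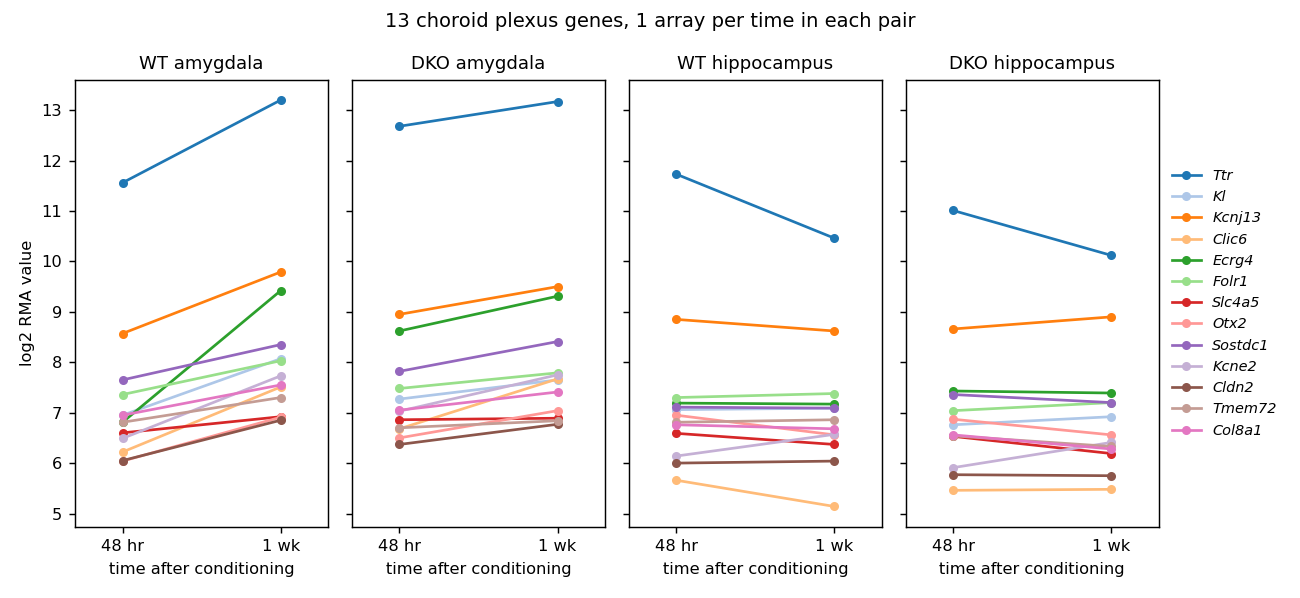
Levels (y axis, log2 RMA value) of 13 choroid plexus genes at 48 hr and 1 wk, with 1 panel for each pair and 1 line for each gene. Lines slope up in both amygdala panels, most steeply in WT amygdala, while Ttr slopes down in both hippocampus panels.

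Some genes of pyramidal and granule neurons were lower at 1 wk in WT amygdala and higher in DKO amygdala. Prox1, the homeobox factor of dentate granule cells, read 7.46 and 6.66 in WT amygdala and 6.72 and 7.11 in DKO amygdala, while the 4 hippocampus arrays stood at 9.14 to 9.45. Of 20 hippocampus-enriched genes 4 were lower by 1.5-fold in WT amygdala (Prox1, Zbtb20, Tdo2 and Trpc6; background 0.115%), with a median of -0.19, and 15 of 20 below 0. In DKO amygdala 11 of 20 were above 0 and 3 higher by 1.5-fold (background 2.58%), with a median of 0.08 that lay under the 0.14 of all genes and was -0.02 after centring. Neurod6, a factor of neocortical and hippocampal pyramidal neurons, read 9.01 and 8.03 in WT amygdala and 8.0 and 8.77 in DKO amygdala. Tbr1, of glutamatergic cortical neurons, differed by -0.64 in the WT and 0.38 in DKO amygdala.

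Over all genes 6 were 1.5-fold lower in WT amygdala and 1.5-fold higher in DKO amygdala: Neurod6, Zbtb20, Iqgap2, Itga8, Shisa6 and Ifit3. For each of them all 4 hippocampus arrays stood above all 4 amygdala arrays, as for 7.98% of all genes. Iqgap2, an IQGAP scaffold protein, read 9.61 and 8.82 in WT amygdala, 8.36 and 9.20 in DKO amygdala, and 10.05 to 10.64 in the hippocampus. Itga8, an integrin subunit, read 6.76 and 5.98 in WT amygdala, 5.91 and 6.66 in DKO amygdala, and 7.88 to 8.01 in the hippocampus. The WT array of 48 hr and the DKO array of 1 wk were the 2 highest amygdala arrays for Neurod6, Iqgap2 and Itga8. That order is largely set by the choice of genes that differed in opposite directions. The part of neighbouring cortex or hippocampus in these values was not tested. No gene was 1.5-fold higher in the WT and lower in DKO amygdala. Tdo2, tryptophan dioxygenase of the dentate gyrus, was the 1 gene lower by 1.5-fold in both amygdala pairs, at -0.64 and -0.68, and was 0.60 higher in DKO hippocampus.

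In the hippocampus the pairs also differed in direction, for genes of the thalamus, which lies beneath it. All 18 thalamic genes were above 0 in WT hippocampus, with a median of 0.38 and 5 higher by 1.5-fold (background 0.196%). In DKO hippocampus 14 of 18 were below 0, with a median of -0.40 and 4 lower by 1.5-fold (background 0.145%). Tcf7l2, the Wnt effector that marks thalamic neurons, read 8.31 at 48 hr and 9.23 at 1 wk in WT hippocampus and 9.73 and 9.31 in DKO hippocampus, with 7.26 to 7.75 on the amygdala arrays. Ramp3, a receptor activity modifying protein, read 6.69 and 7.31 in WT hippocampus and 8.26 and 7.09 in DKO hippocampus. Prkcd, a protein kinase C isoform, differed by 0.64 and -0.81, Slc17a6, the vesicular glutamate transporter of subcortical neurons, by 0.68 and -0.65, and Slitrk6, which is not on the list, by 0.61 and -1.14.

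These 4 genes, Prkcd, Ramp3, Slc17a6 and Slitrk6, were the only ones 1.5-fold higher in the WT and 1.5-fold lower in DKO hippocampus. The mean level of the thalamic list was 6.98 and 7.39 in WT hippocampus and 7.62 and 7.25 in DKO hippocampus, so the arrays of 48 hr held both extremes and those of 1 wk lay between them. In DKO hippocampus 14 of 15 myelin genes were below 0 as well, with a median of -0.25 against 0.07 for all genes. In WT hippocampus the myelin median was -0.05. Mbp, the main basic protein of myelin, read 8.71 and 8.71 in WT hippocampus and 8.73 and 8.47 in DKO hippocampus. The part of neighbouring thalamus in these differences was not tested.

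Of 23 neuropeptide genes 5 were lower by 1.5-fold at 1 wk in WT hippocampus (background 0.276%) and none in DKO hippocampus. The other members were not shifted alike: 8 of 23 were above 0 in WT hippocampus, and the list medians were -0.12 and 0.11. Nts, the neurotensin precursor, read 7.97 and 6.83 in WT hippocampus, 6.20 and 6.21 in DKO hippocampus and 8.69 to 9.56 on the amygdala arrays. Penk, the enkephalin precursor, read 10.67 and 9.80 in the WT and 9.51 and 9.92 in DKO hippocampus, with 11.59 to 11.97 in the amygdala. Grp, gastrin-releasing peptide, which shapes fear memory through amygdala interneurons, read 8.33 and 7.32 in the WT and 7.12 and 7.61 in DKO hippocampus.

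Gal (-0.91) and Tac1 (-0.67) completed the 5, and Npy and Crh, also on the list, differed by -0.09 and -0.18 in WT hippocampus. For Nts, Penk and Grp the WT hippocampus array of 48 hr was the highest of the 4 hippocampus arrays. The same array was the highest of the 4 for Meis2, Nr2f2 and Etv1, which are amygdala-enriched factors and differed by -0.74, -0.66 and -0.62 in WT hippocampus. These are the 3 of 18 amygdala-enriched genes lower by 1.5-fold there, while 7 were above 0, Prkcd was 1.5-fold higher and the median was -0.06. Drd1, the dopamine receptor of striatal projection neurons, differed by 0.18 there. The part of neighbouring tissue in these values was not tested.

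**Figure D4:**
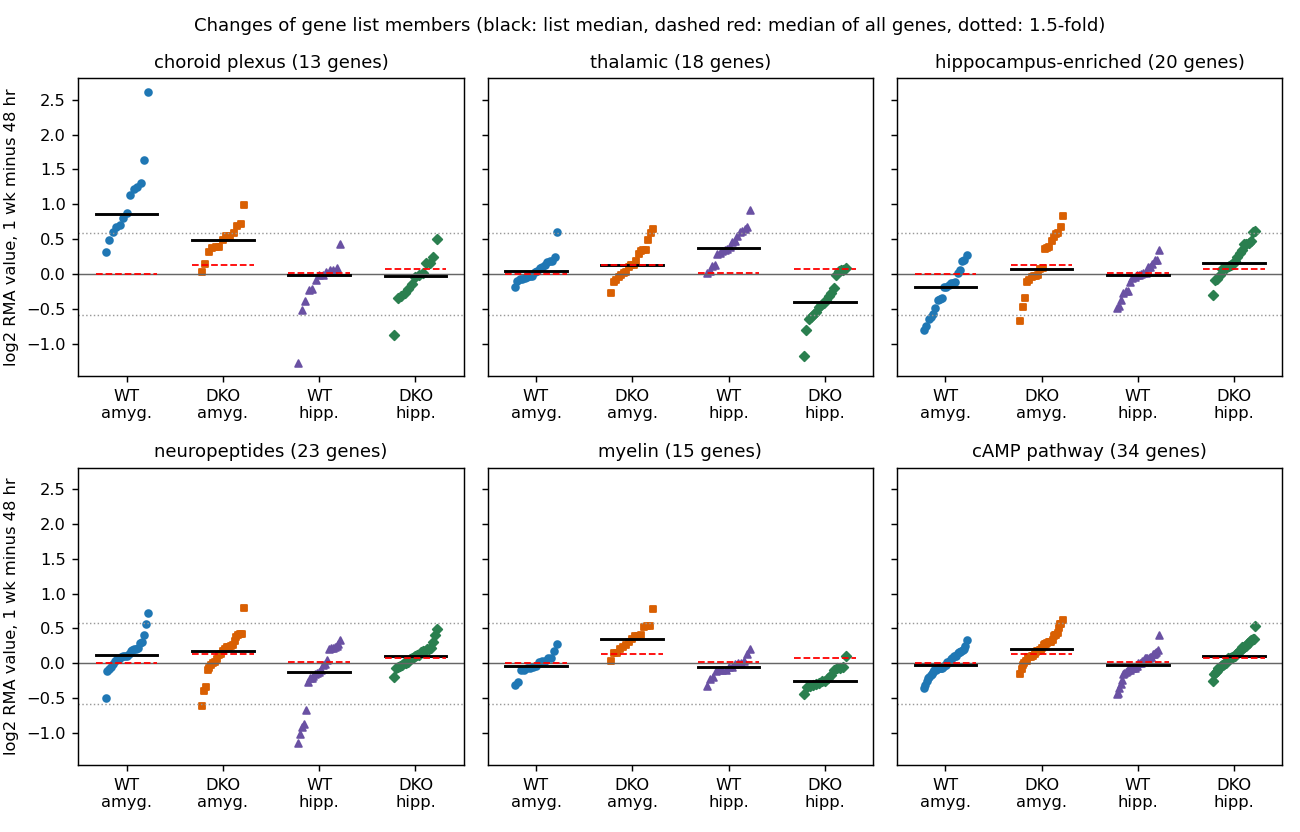
Differences between 1 wk and 48 hr (y axis, log2 RMA value) of the members of 6 gene lists in the 4 pairs (x axis), 1 point for each gene. Black bars are list medians, dashed red bars the median of all genes, and dotted lines 1.5-fold. Choroid plexus genes lie high in the amygdala (medians 0.87 and 0.49), and thalamic genes lie high in WT hippocampus (0.38) and low in DKO hippocampus (-0.40).

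Within the hippocampus limma called 0 transcript clusters at an adjusted p of 0.05 and 646 at an unadjusted p below 0.05 (2.24%, smallest adjusted p 1.00). Myl4, a myosin light chain, and Ttr were the 2 genes 1.5-fold lower in both hippocampus pairs, Myl4 by -0.62 and -0.63. None was 1.5-fold higher in both. Within WT limma also called 0 at an adjusted p of 0.05, with 1279 at an unadjusted p below 0.05 (4.43%, smallest adjusted p 0.633). Grp gave the lowest mean there among the genes named by the rule, -0.76 (SE 0.139, limma adjusted p = 0.811), followed by the splicing factor Tra2b at -0.68 (SE 0.131).

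In DKO mice limma called 8 transcript clusters, all of them higher at 1 wk (amygdala and hippocampus pairs, adjusted p of 0.05, 0.0277% of all). The regions are the only replicates in this fit and may come from the same mice. Of the 8, 3 have identical values on every array, and with identical transcript clusters taken once 6 were called. Of these 3 have a symbol: Anp32-ps, a pseudogene of the Anp32 family, Adgrl2, the adhesion receptor latrophilin 2, and Snord82, a C/D box small nucleolar RNA. Anp32-ps read 6.59 and 7.71 in DKO amygdala and 7.37 and 8.35 in DKO hippocampus, against 7.18 and 7.21 in WT amygdala and 7.6 and 7.22 in WT hippocampus. It rose in DKO by 1.05 (SE 0.126, 2.07-fold, limma adjusted p = 0.0308). As a pseudogene it may share probes with its parent genes, so its identity is uncertain.

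The probe set of Adgrl2 that was called, 1 of 8 for this gene, read 6.53 and 7.42 in DKO amygdala. It read 6.12 and 6.95 in DKO hippocampus, 6.99 and 6.76 in WT amygdala and 7.14 and 6.96 in WT hippocampus. It rose in DKO by 0.86 (SE 0.108, limma adjusted p = 0.0308), whereas the mean over all 8 differed by 0.33 and 0.04 in the 2 DKO pairs. Snord82 read 4.65 and 5.42 in DKO amygdala and 5.24 and 6.11 in DKO hippocampus. It rose by 0.82 (SE 0.112, limma adjusted p = 0.0440), with -0.37 and -0.17 in the WT pairs. Its mean level of 5.42 lay under the array medians of 6.64 to 6.83. For all 3 the DKO amygdala array of 48 hr was below both WT amygdala arrays, and for Adgrl2 and Snord82 the same held in the hippocampus, whereas Anp32-ps at 7.37 lay between the WT hippocampus arrays.

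No transcript cluster was called after a further quantile normalization or after centring, with smallest adjusted p of 0.312 and 0.0762, or without the DKO amygdala pair. The differences stayed near their size: under these scalings, in that order, Anp32-ps stood at 0.91 and 0.97, Adgrl2 at 0.76 and 0.78 and Snord82 at 0.80 and 0.73. The calls stood on a background in which 5065 transcript clusters, 17.6%, had an unadjusted p below 0.05 in DKO, 4735 of them higher and 330 lower. After centring 2010 were higher and 1125 lower, and after quantile normalization 1223 and 1000. The difference between DKO and WT in the change itself did not pass for any transcript cluster (0 at an adjusted p of 0.05, 3955 or 13.7% at an unadjusted p below 0.05), and all 3 named genes had an adjusted p of 0.0777 there. Grp led that comparison with a difference of 1.40 (SE 0.197, limma adjusted p = 0.0777), being lower at 1 wk in both WT pairs (-0.50 and -1.01) and higher in both DKO pairs (0.80 and 0.49).

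Of all genes 9, or 0.0451%, were 1.5-fold higher in both DKO pairs: Anp32-ps, Gm11517, Mir340, Mir376b, Mir99a, Nsun7, Snord82, Wfs1 and Zbtb16. Neither WT pair reached 1.5-fold for any of them. MicroRNA genes made up 3 of the 9, of 300 measured. Their mature sequences are shown, with that of the leading gene Mirlet7g, because they name what the probe sets are about. They were read from RefSeq on GRCm38.p6, which held mature sequences for 270 of the 300 genes, and capitals mark the seed, bases 2 to 8, through which a microRNA finds its targets.
miR-340-5p (chr11:50069720-50069741, plus strand): uUAUAAAGcaaugagacugauu
miR-340-3p (chr11:50069762-50069783, plus strand): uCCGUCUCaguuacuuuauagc
miR-376b-5p (chr12:109723471-109723492, plus strand): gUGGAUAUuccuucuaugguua
miR-376b-3p (chr12:109723508-109723528, plus strand): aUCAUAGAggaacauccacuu
miR-99a-5p (chr16:77598940-77598961, plus strand): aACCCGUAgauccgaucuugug
miR-99a-3p (chr16:77598977-77598997, plus strand): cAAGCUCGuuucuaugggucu
let-7g-5p (chr9:106178846-106178867, plus strand): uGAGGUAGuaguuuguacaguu
let-7g-3p (chr9:106178902-106178923, plus strand): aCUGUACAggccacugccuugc

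Mir376b read 6.44 and 7.88 in DKO amygdala, 6.42 and 7.11 in DKO hippocampus, 7.01 and 7.06 in WT amygdala and 7.28 and 6.85 in WT hippocampus. Both DKO arrays of 48 hr were the lowest of the 8, and the mean difference in DKO was 1.07 (SE 0.170, limma adjusted p = 0.0950). Mir99a differed by 0.92 and 0.66 in DKO amygdala and DKO hippocampus and by -0.45 and -0.27 in the WT pairs, a difference between genotypes of 1.15 (SE 0.166, limma adjusted p = 0.0777). Mir340 differed by 0.68 and 0.75 in the DKO pairs, at levels of 4.23 to 5.07 over the 8 arrays. Whether these probe sets read the precursor or the mature form is not given in the sources used here.

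Mir99b and Mir100, which share the seed of miR-99a-5p, brought the median of that group of 3 to 0.01 in DKO amygdala and 0.03 in DKO hippocampus. The let-7 seed is carried by 9 measured genes. All 9 were above 0 in DKO hippocampus (13408 of all 19938 genes were), with a median of 0.21. Of these 2 were 1.5-fold higher there, Mirlet7c-1 at 1.01 and Mirlet7f-1 at 0.89, against 0.301% of all genes and 7 of 300 microRNA genes. In WT hippocampus these 2 differed by -0.29 and -0.24. Over all 300 microRNA genes the medians were 0.02, 0.01, 0.07 and 0.04 in WT amygdala, DKO amygdala, WT hippocampus and DKO hippocampus.

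Of the other genes higher in both DKO pairs, Zbtb16, a zinc finger factor that glucocorticoids induce, read 7.56 and 8.15 in DKO amygdala and 8.02 and 8.82 in DKO hippocampus, against 8.08 and 8.04 in WT amygdala and 8.38 and 8.61 in WT hippocampus. Fkbp5, a chaperone of the glucocorticoid receptor from the same list, differed by 0.40 and 0.71 in the DKO pairs and by 0.01 and -0.14 in the WT pairs. Sgk1, another target, differed by 0.21 and 0.14 in the DKO pairs. The list of 18 had medians of 0.25 and 0.06 there, against 0.14 and 0.07 for all genes, and 14 and 11 members were above 0. In each of the 2 pairs 2 members were 1.5-fold higher (background 2.58% and 0.301%). After quantile normalization the list medians were 0.056 and -0.021. Wfs1, the endoplasmic reticulum protein of Wolfram syndrome and a marker of CA1 neurons, differed by 0.68 and 0.62 in the DKO pairs and by -0.19 and -0.46 in the WT pairs.

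**Figure D5:**
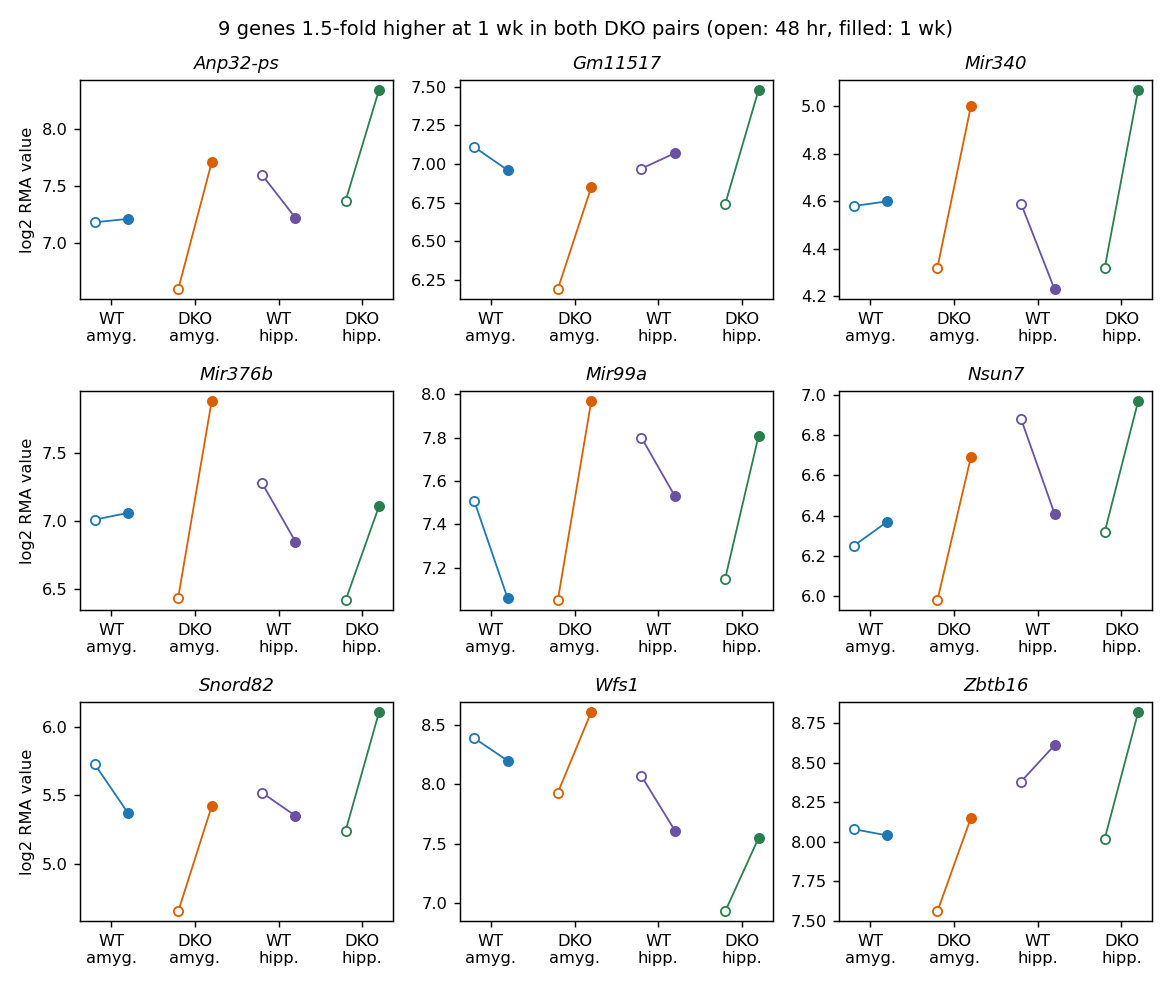
Levels (y axis, log2 RMA value, own scale in each panel) of the 9 genes 1.5-fold higher at 1 wk in both DKO pairs, with open points for 48 hr and filled points for 1 wk in the 4 pairs (x axis). For Mir376b both open DKO points lie low, at 6.44 and 6.42. For Anp32-ps the open point of DKO hippocampus lies between the WT hippocampus points. No WT line rises by 1.5-fold, and that of Zbtb16 in WT hippocampus slopes up, from 8.38 to 8.61. The genes were chosen by the DKO differences shown.

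Of 34 genes of the cAMP pathway 1 passed 1.5-fold in a pair, which is near the background of 2.58% in DKO amygdala: Prkar2a, a regulatory subunit of protein kinase A, at 0.62 in DKO amygdala (0.48 above that pair's median). The medians were -0.03, 0.21, -0.02 and 0.10 in WT amygdala, DKO amygdala, WT hippocampus and DKO hippocampus. Adcy8, whose transcript is disrupted in DKO mice, differed by -0.15, 0.34, 0.14 and 0.54, and Adcy1 by -0.31, 0.19, 0.09 and -0.04. Slc11a2, an iron transporter, differed by no more than 0.15 in any pair, and Lynx1, a brake on nicotinic receptors, by 0.16, 0.42, -0.02 and 0.09.

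In each list of synaptic, clock or chaperone genes at most 1 member passed 1.5-fold in a given pair and direction, where the background was 2.58% of genes higher in DKO amygdala and at most 0.301% in either direction in the other pairs. Grin2a, an NMDA receptor subunit, was higher by 0.79 in DKO amygdala and differed by -0.52 in WT amygdala, and it was the 1 of 20 glutamate receptor genes past 1.5-fold in any pair. Among 14 GABA genes Gabrg1 was 0.71 higher in WT amygdala, Gabra4 0.63 higher in DKO amygdala and Gabra3 differed by -0.61 in WT hippocampus. Of 17 clock genes Bhlhe41 alone passed, at 0.83 in DKO amygdala, while Per1, Per2, Dbp and Nr1d1 lay within 0.36 of 0 in all 4 pairs. Of 15 chaperone genes Chordc1 alone passed, at 0.71 in DKO amygdala, and Hspa8 differed by 0.15, 0.31, -0.09 and 0.18. Hspa1b had no probe set of its own. None of 21 synaptic vesicle genes and none of 15 genes of the perineuronal matrix passed 1.5-fold in any pair.

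In DKO amygdala 515 genes were 1.5-fold higher and 42 lower at 1 wk, against 57 and 23 in WT amygdala, 39 and 55 in WT hippocampus and 60 and 29 in DKO hippocampus. After centring on the array medians the counts in DKO amygdala were 201 higher (1.01%) and 99 lower (0.497%), in WT hippocampus 23 higher and 77 lower (0.386%), and in DKO hippocampus 32 higher and 51 lower, so that the balance in DKO hippocampus turned. After a further quantile normalization DKO amygdala held 124 higher and 90 lower, and DKO hippocampus 31 and 49. Counted over transcript clusters, 795 (2.76%) were higher in DKO amygdala and 123 (0.426%) lower in WT hippocampus. The leading genes of DKO amygdala above the median level were Ptpn3, a protein tyrosine phosphatase, at 1.48 in 1 of 12 probe sets, Mir376b at 1.44, the centrosomal Cspp1 at 1.20 in 1 of 14 probe sets, and Alg14, of protein glycosylation, at 1.17. Cartpt, the CART peptide precursor, led the lower side at -0.61. Of these Cspp1 and Ptpn3 differed by -0.43 and -0.61 in WT amygdala.

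In the other pairs the leading genes outside the lists above were few. Unc13c, a synaptic vesicle priming factor, was 1.18 higher in WT amygdala in 1 of 7 probe sets. Phgdh, of serine synthesis, was 0.84 higher in WT hippocampus and differed by -0.56 in WT amygdala, and Ldb2, a LIM domain binding factor, differed by -1.02 in WT hippocampus. Mrpl22, a mitochondrial ribosomal protein, was 1.09 higher in DKO hippocampus and within 0.13 of 0 elsewhere. In DKO amygdala all 15 myelin genes were above 0, with a median of 0.35, as were 56 of 60 ribosomal protein genes, with a median of 0.28, where 14199 of all 19938 genes were above 0. After centring their medians were 0.26 and 0.19, and after quantile normalization 0.09 and 0.01, with 8 of 15 and 32 of 60 above 0. Gfap, the intermediate filament of astrocytes, differed by -0.40 in WT amygdala and by 0.02, -0.07 and -0.03 in the other pairs.

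Lists of other cell types and of RNA classes are given by their medians. In the order WT amygdala, DKO amygdala, WT hippocampus and DKO hippocampus, the medians were -0.06, 0.23, -0.13 and 0.12 for 14 microglial genes, -0.07, 0.07, 0.00 and 0.00 for 15 endothelial and mural genes and 0.00, 0.10, -0.14 and -0.12 for 15 meningeal genes. Striatal genes (22) had medians of -0.08, 0.13, 0.07 and 0.07, neocortical genes (16) -0.13, 0.22, 0.01 and 0.08 and hypothalamic genes (16) 0.10, -0.06, 0.11 and -0.03. Of the neocortical genes 2 were lower by 1.5-fold in WT amygdala (background 0.115%), and of the striatal genes 2 in WT hippocampus (background 0.276%). The interferon response (14 genes) had medians of -0.02, 0.05, 0.00 and -0.06 and the p53 and apoptosis genes (10) 0.04, 0.12, 0.08 and 0.07. Respiratory chain genes (81) had medians of 0.03, 0.28, -0.06 and 0.08. Of them 78 were above 0 in DKO amygdala and 22 in WT hippocampus, where 14199 and 10819 of all 19938 genes were. After quantile normalization 45 and 48 were above 0 in these pairs, with medians of 0.025 and 0.021. Small nucleolar RNA genes (51) had medians of 0.01, 0.17, -0.01 and 0.12, and 7 were 1.5-fold higher in DKO amygdala (background 2.58%), 5 after centring and 4 after quantile normalization. Histone genes (30) stood at -0.01, 0.03, 0.05 and 0.01. After quantile normalization the striatal, endothelial, histone, neocortical and meningeal medians changed sign in DKO amygdala, to -0.07, -0.08, -0.07, -0.03 and -0.07. Among lists given above, so did the medians of the cAMP pathway (-0.015), hippocampus-enriched (-0.09) and microRNA genes (-0.05). The same held for neuropeptide (-0.016), synaptic vesicle (-0.04) and activity-induced effector genes (-0.021). Of 1345 genes of chemoreceptor and epithelial families, dim in brain, 17 were lower by 1.5-fold in DKO amygdala (background 0.211%), with medians of 0.04, -0.04, 0.08 and 0.01.

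The difference between the regions in the change was tested directly, and limma called 0 transcript clusters at an adjusted p of 0.05 and 722 at an unadjusted p below 0.05 (2.50%). Ttr led with -2.14 for hippocampus minus amygdala (SE 0.328), followed by Clic6 at -1.39 (SE 0.223) and Otx2 at -1.05 (SE 0.188), all with an adjusted p of 1.00. On the positive side Tdo2 led with 0.96 (SE 0.219).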

How the data were processed

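The 8 samples were hybridised to Affymetrix Mouse Gene 1.0 ST arrays, 1 array each. The deposited values are log2 expression values that the authors made by RMA (background correction, quantile normalization across arrays and summary per transcript cluster) with the Expression Console of Affymetrix; its version is not given in the sources used here. RMA assumes like distributions, and arrays still differed in spread. The number of arrays limits the precision: 1 per region, genotype and time, each a pool of mice. The p-values therefore measure the spread between pools, regions and genotypes. Within a region the replicates are the WT and the DKO pair, so differences between genotypes are part of that spread. Within a genotype the replicates are the regions.

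Models were fitted to all 28853 transcript clusters, with no filter, in limma 3.58.1 (lmFit and eBayes, R 4.3.3) with the pair of region and genotype as a block, or with the time coefficient split by region or genotype, and Benjamini-Hochberg adjustment at 0.05. The labels carry no replicate numbers, so the pairing comes from the shared region and genotype. For single pairs, which have no replicate, genes past 1.5-fold were counted without a test. Symbols came from the platform annotation: 21789 transcript clusters had 1 symbol (19938 genes, 999 with several transcript clusters, whose mean stands for the gene in lists), 1621 several and 5443 none. Scripts were tested on simulated data with 200 changed transcript clusters. Of 1.5-fold changes set in DKO alone, the fit within DKO found 64%, and 9.86% of its calls were false. The difference between genotypes found 3% of them. Of 1.5-fold changes set in the hippocampus alone, the difference between regions found 1.5%.

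The 32 gene lists, the genes named and the comparison itself were chosen with earlier results of these data known. Named were the 12 genes of smallest p in each direction over the 4 pairs, the 5 largest in each direction above the median level in each pair, region and genotype, 32 genes of the lists, list members that passed a fit, and the 5 of smallest p in the differences. Other genes, such as those past 1.5-fold in 2 pairs, were chosen after their values were seen. Alternatives were a filter at the median level, a further quantile normalization, centring, a variance trend with robust fitting, an adjusted p of 0.1, all 20 arrays in 1 fit, identical transcript clusters taken once, no block, and each pair left out.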

Additional observations from a re-analysis of the deposited data

Results flagged for a closer look

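Of 62 groups of 4 values that were examined, 1 had a value far from the others, and chance flags about 1 in 20 groups. The median difference of 14 astrocyte genes was 0.319 in DKO amygdala against -0.017 in WT amygdala, -0.016 in WT hippocampus and -0.038 in DKO hippocampus. The median of all genes in the DKO amygdala pair was 0.135, and after centring the astrocyte median was 0.228 there. After a further quantile normalization the astrocyte median was 0.073 in DKO amygdala and -0.149 in DKO hippocampus.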

How the results depend on the processing

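Over the 4 pairs limma called 0 transcript clusters in every alternative run, the fit with no replicate block among them. Other counts moved. Within DKO the 8 calls became 15 at an adjusted p of 0.1, 327 above the median level (5 of the 8 among them), 20 with a variance trend (8 of the 8), 0 after quantile normalization and 0 after centring, and 0 to 430 when a pair was left out. For the difference between genotypes the count of 0 became 11 at an adjusted p of 0.1, 95 above the median level, 36 with a variance trend, 1 with identical transcript clusters taken once, and 1 to 212 when a pair was left out. Within the amygdala it became 1 after centring, 5 with a variance trend and 4 to 17 when a pair was left out (4, Ecrg4, Kcne2, Clic6 and 1 without a symbol, without either hippocampus pair). Within the hippocampus it became 1 with a variance trend and 0 to 1 when a pair was left out (Ttr without either amygdala pair). Within WT it became 1 with a variance trend and 0 to 50, and for the difference between regions 1 above the median level (Ttr) and 0 to 6. Where a pair is left out, the lone pair of that region or genotype is assumed to vary like the others. Anp32-ps, Adgrl2 and Snord82 kept their direction in every alternative run but not always their call: with all 20 arrays in 1 fit Adgrl2 (limma adjusted p = 0.184) and Snord82 (0.12) did not pass, and without the hippocampus DKO pair 1 of the 8 was among the 35 called.

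Counts of transcript clusters past 1.5-fold moved too. In the WT amygdala 105 higher and 53 lower became 13 and 4 at 2-fold and 39 and 26 above the median level. In the DKO amygdala 795 higher and 89 lower became 249 and 243 after quantile normalization, 352 and 242 after centring and 35 and 6 at 2-fold, and the 89 lower became 10 above the median level. In the WT hippocampus 81 higher became 51 after quantile normalization and 53 after centring, and 81 and 123 became 2 and 12 at 2-fold and 23 and 68 above the median level. In the DKO hippocampus 266 higher and 48 lower became 151 and 80 after quantile normalization, 174 and 93 after centring, 8 and 4 at 2-fold and 113 and 12 above the median level. Of choroid plexus genes 1 in place of 4 passed in the DKO amygdala after quantile normalization, and of thalamic genes 3 in place of 5 passed in the WT hippocampus after either scaling. The balance of higher and lower genes turned in places: past 1.5-fold in DKO hippocampus 60 and 29 became 32 and 51 after centring and 31 and 49 after quantile normalization, and in all 4 pairs 2195 and 317 became 747 and 1009, and 1014 and 1058. With 1 array per condition, differences over 2-fold between regions or genotypes also failed to pass, as for Ttr and Grp.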
